A study of Mus musculus with 12 samples.

Results

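The genes described here present peptides to T cells. They are 6 genes of the MHC class II pathway (H2-Aa, H2-Ab1, H2-Eb1, Cd74, Ciita and H2-DMa) and 4 of the class I pathway (B2m, Tap1, Tap2 and Tapbp), and they were taken as every probe set whose platform annotation gives one of these symbols. This gave 10 of the 12393 genes named on the array and 19 of 22690 probe sets, 10 probe sets for class II and 9 for class I. They were measured on 12 Affymetrix mouse arrays of mammary tumours. The 6 knockout (KO) arrays held tumours of MMTV-c-myc/Hunk KO female mice, and the 6 wild-type (WT) arrays held tumours of MMTV-c-myc females with intact Hunk. All animals were FVB females, according to the labels, and all carried the c-myc transgene, which the mouse mammary tumour virus promoter drives in mammary epithelium. Hunk encodes a protein kinase of the Snf1 family. In the KO allele its putative promoter and exon 1 were replaced by a pGKneo cassette between loxP sites in E14 embryonic stem cells, so that every KO animal carries this cassette. The females had been mated before tumours appeared, and tumours were collected when the largest had reached a diameter limit. The labels do not say that each array came from a separate mouse or tumour, and the p-values below therefore measure only the spread between arrays, part of which may be technical. No age is given in the labels.

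MHC class I molecules stand on nearly all nucleated cells and show peptides from the cell's own proteins to CD8 T cells. Their heavy chain pairs with beta-2-microglobulin (B2m), the Tap1 and Tap2 proteins form the transporter that brings peptides into the endoplasmic reticulum, and tapasin (Tapbp) holds the empty molecule at that transporter. MHC class II molecules, made of an alpha and a beta chain (H2-Aa with H2-Ab1, and H2-Eb1 with its own alpha partner), are found mainly on dendritic cells, B cells and macrophages and show peptides from engulfed proteins to CD4 T cells. The invariant chain (Cd74) accompanies them to endosomes, the H2-DM dimer, to which H2-DMa contributes the alpha chain, exchanges its remnant for peptide, and Ciita is the transcriptional coactivator of the class II genes. Interferon-gamma raises the expression of both pathways, and in many epithelial tumour cells class I is low and class II absent.

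Promoter sequences were matched for 6 of the 10 genes in a RefSeq table of the GRCm38.p6 assembly, which is of another strain than the tumours. The 4 windows below are examples from both pathways, the class II chain genes H2-Aa and H2-Eb1 and the class I genes B2m and Tap1. H2-Eb1 was in none of the correlated pairs that passed below. Each is the 250 bases before the annotated start, read 5′ to 3′ on the gene's strand, and capitals mark matches to ATTGG (the inverse of CCAAT, the core of the Y box read by NF-Y), to TGACG (part of the X2 box read by CREB-type factors) and to an interferon-response core, GAAA and again GAAA with 2 bases between them, on either strand. The first, of H2-Aa, lies at chr17:34287824-34288073 on the minus strand, that of H2-Eb1 at chr17:34305617-34305866 on the plus strand, that of B2m at chr2:122147437-122147686 on the plus strand and that of Tap1 at chr17:34187306-34187555 on the plus strand.
H2-Aa: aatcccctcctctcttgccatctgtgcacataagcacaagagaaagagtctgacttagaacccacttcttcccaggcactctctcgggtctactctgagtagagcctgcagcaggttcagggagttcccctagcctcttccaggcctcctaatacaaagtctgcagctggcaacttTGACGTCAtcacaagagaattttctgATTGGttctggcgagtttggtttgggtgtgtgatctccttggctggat
H2-Eb1: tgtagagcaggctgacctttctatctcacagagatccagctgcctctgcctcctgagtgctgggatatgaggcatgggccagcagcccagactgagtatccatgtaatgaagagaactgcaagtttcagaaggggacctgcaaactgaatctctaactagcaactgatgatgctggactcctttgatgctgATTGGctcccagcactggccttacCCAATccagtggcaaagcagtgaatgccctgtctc
B2m: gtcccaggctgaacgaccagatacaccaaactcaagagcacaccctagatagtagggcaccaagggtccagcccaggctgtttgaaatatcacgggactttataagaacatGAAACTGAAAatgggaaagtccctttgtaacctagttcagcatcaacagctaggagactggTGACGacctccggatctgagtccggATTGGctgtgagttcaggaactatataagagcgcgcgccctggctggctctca
Tap1: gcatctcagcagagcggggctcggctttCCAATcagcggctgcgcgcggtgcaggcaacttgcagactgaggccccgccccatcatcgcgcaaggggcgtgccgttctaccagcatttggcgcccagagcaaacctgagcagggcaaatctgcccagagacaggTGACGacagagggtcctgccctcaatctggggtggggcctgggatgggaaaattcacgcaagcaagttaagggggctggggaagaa

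The 6 genes had 7 windows, since the table holds 2 for H2-DMa. ATTGG was found in 6 of the 7, with no match in 1 of the windows of H2-DMa, and in 33.8% of the 32851 windows in the table. It lay 48 to 44 bases before the start in H2-Aa, 59 to 55 in H2-Eb1 and 53 to 49 in B2m, with a TGACG 74 to 70 bases before the start in H2-Aa and 78 to 74 in B2m. TGACG was in the windows of H2-Aa, B2m and Tap1 and in 17.8% of all windows. In H2-Aa a forward and an inverse match to TGACG share 2 bases. The interferon-response core matched the window of B2m, 139 to 130 bases before the start, and of none of the other 5 genes, against 2.98% of all windows. These 3 patterns were chosen from 15 after the sequences had been seen. Of the other 12, ACAGATG (4.15% of windows) and GGGA with TTCCC after 1 base (0.32%), a pattern of NF-kappaB sites, matched H2-Aa. TTCNNNGAA (7.02%), the same followed by A (3.59%), TTCNNGGAA (4.06%), TTC with GAA after 6 bases (6.67%), CCTAGCAAC (0.694%), CCNNG directly followed by NAACNG (3.81%), CNNAGNN directly followed by ACAGATG (0.0913%), the interferon-response core followed by C (0.685%), GGAAAC directly followed by TGAAA (0.0731%) and the NF-kappaB pattern preceded by G (0.113%) matched none of the 6. Several of these patterns lie within longer ones of the same family. Tap1 and Psmb9, an immunoproteasome gene, start close together on opposite strands, and their 300-base windows overlap by 275 bases.

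Signals are log2 GCRMA values. They give the brightness of a probe set, not an amount that can be set against another gene's. Each array's background was taken from 27 control probe sets for Bacillus transcripts, as the brightest of them, and averaged 3.71 ± 0.15 on the KO arrays and 3.60 ± 0.10 on the WT arrays (SD, n = 6 each). The array medians lay between 3.87 and 4.10. The only probe set of Hunk lay between 2.60 and 3.06 on the KO arrays, all below background, and between 2.99 and 5.53 on the WT arrays, with WT arrays 4 (3.32) and 6 (2.99) also below background. Where that probe set lies relative to the deleted exon was not checked. KO arrays 4 and 5 were more alike than any other pair (SD of the difference 0.338 over the probe sets tested, against 0.531 for the next pair). The difference between the 3′ and 5′ beta-actin control probe sets, a sign of RNA integrity, was 1.51 ± 0.15 on the KO arrays and 1.29 ± 0.05 on the WT arrays (SD, n = 6 each).

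Only part of the presentation machinery gave a signal above background in these tumours. Of the 19 probe sets, 5 were above background on all 12 arrays, 4 on some arrays and 10 on none. Cd74, 1 probe set of H2-Ab1, both of B2m and 1 of Tapbp were above it throughout, and H2-Aa was above it on all arrays but KO array 6. H2-Eb1, Ciita, H2-DMa and Tap2 were above background on no array, so their levels have only an upper bound here. Of the 19, 6 passed the filter on dim probe sets (mean over 12 arrays above 3.98) and 13 did not.

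Between the genotypes, 0 of the 19 probe sets passed limma's test at an adjusted p of 0.05, in either direction. The share called among all 11313 probe sets past the filter was 2.46% (1.18% higher and 1.28% lower in KO tumours), and among all 22626 probe sets without control probe sets 0.672%. At an unadjusted p under 0.05 limma called 1 of the 19, Cd74, against 19.1% of the probe sets past the filter and 11.3% of all, and the exact permutation test also gave 1. The KO and WT values overlapped for all 19 probe sets, while 2.87% of the probe sets past the filter, and 1.58% of all, did not overlap. In the plot of differences, 7 probe sets with arrays above background in both groups are shown, and the other 12, whose adjusted p ranged between 0.456 and 0.970, are given below by their levels alone. The median log2 change of the 6 past the filter was -0.23, with B2m counted by both its probe sets, beside 0.01 over all probe sets past it. Over all 19 it was 0.02, beside 0.04 over all probe sets without the filter.

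**Figure D1:**
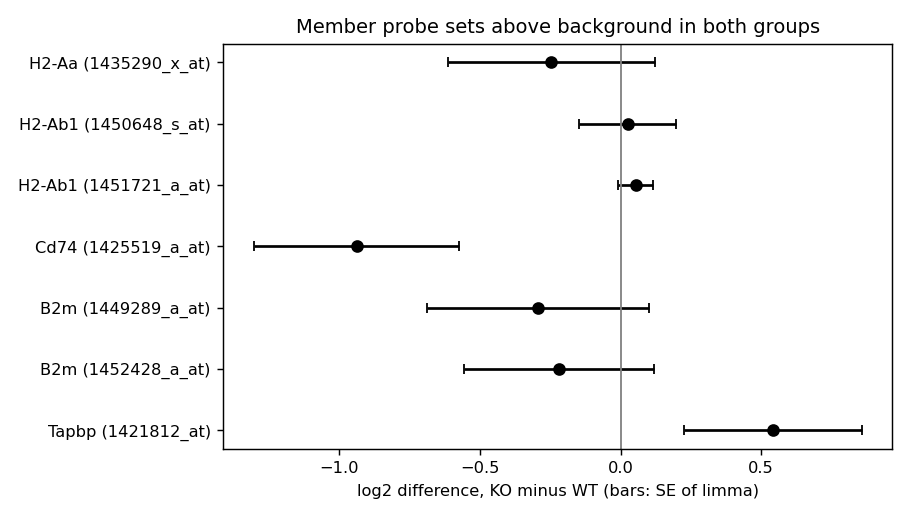
Log2 difference, KO minus WT, of the 7 member probe sets with arrays above background in both groups. Points are limma estimates over 6 KO and 6 WT arrays, bars are 1 SE, and the vertical line marks no difference. Cd74 lies at -0.94 and Tapbp at 0.54, with the others between -0.29 and 0.05.

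Cd74, the class II invariant chain, had the lowest adjusted p of the members. Its signal on the KO arrays 1 to 6 was 6.79, 6.45, 7.26, 6.09, 5.98 and 5.01, and on the WT arrays 1 to 6 it was 6.29, 7.55, 7.09, 7.57, 6.83 and 7.90. WT arrays 2, 4 and 6 were above the highest KO array, KO array 6 was the lowest of all, and the groups overlapped. The mean was 6.27 ± 0.77 in KO tumours and 7.20 ± 0.59 in WT tumours (SD, n = 6 each), a log2 difference of -0.94 (SE 0.37) that did not pass limma's test (adjusted p = 0.187) and gave p = 0.0368 by the exact permutation test, two-sided. With array weights, which count divergent arrays less, the difference was -1.20 and passed limma's test (adjusted p = 0.0469). Over the other alternatives it lay between -1.14 and -0.69 and was called in none, with adjusted p up to 0.492. Without KO array 6 it was -0.69 (adjusted p = 0.289), and with KO arrays 4 and 5 averaged -0.89 (adjusted p = 0.275). Without WT array 4 or WT array 6, whose Hunk signal was below background, it was -0.86 and -0.80 (adjusted p = 0.313 and 0.300).

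The class II alpha and beta chains did not follow the direction of Cd74 to the same size. H2-Aa, by its probe set above background (1435290_x_at), had 4.98, 4.91, 5.46, 4.65, 4.82 and 3.10 on the KO arrays 1 to 6 and 3.91, 5.06, 4.70, 5.28, 4.85 and 5.60 on the WT arrays 1 to 6. KO array 6 stood more than 1 log2 unit below the other KO arrays and below its background, WT array 1 was the lowest of the WT arrays, and the remaining arrays of both groups mixed. The log2 difference was -0.25 (SE 0.37, adjusted p = 0.727), and without KO array 6 it was 0.06. H2-Ab1 (1450648_s_at) had 6.24, 6.31, 6.80, 6.30, 5.92 and 6.30 on the KO arrays 1 to 6 and 6.03, 6.46, 6.30, 6.45, 5.82 and 6.66 on the WT arrays 1 to 6. These values spread over 0.98 log2 units with no separation of the groups, and the difference was 0.02 (SE 0.17, adjusted p = 0.948). Whether the differences of Cd74, H2-Aa and H2-Ab1 differ from each other was not tested.

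The other probe sets of these chains were near or below background. A further H2-Ab1 probe set (1425477_x_at) averaged 3.35 ± 0.13 in KO tumours and 3.59 ± 0.27 in WT tumours (SD, n = 6 each), and only WT arrays 3 (3.91) and 4 (3.96) were above background. The third (1451721_a_at) lay between 3.84 and 3.87 on the KO arrays and between 3.52 and 3.88 on the WT arrays (log2 difference 0.05, adjusted p = 0.582). The second H2-Aa probe set (1452431_s_at) lay between 2.01 and 3.11 on the KO arrays and between 2.10 and 2.86 on the WT arrays, below background on all of them. It correlated with 1435290_x_at at r = 0.42 over the 12 arrays. The H2-Ab1 probe set 1450648_s_at had r = 0.20 with 1425477_x_at and 0.54 with 1451721_a_at, and the latter 2 had r = 0.06 with each other. The ending _x_at marks probes shared between transcripts, so the signal of 1435290_x_at may not come from H2-Aa alone. H2-Eb1 lay between 2.56 and 3.01 on the KO arrays and between 2.28 and 3.06 on the WT arrays. Mouse MHC genes differ greatly between strains, the embryonic stem cells came from another strain than FVB, and the match of these probes to the alleles in these animals was not checked.

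Ciita and H2-DMa were below background on every array and hardly varied. The Ciita probe set of higher mean (1421211_a_at) lay between 2.35 and 2.44 on the KO arrays and between 2.30 and 2.42 on the WT arrays, and the other (1421210_at) between 2.20 and 2.36 on the KO arrays and between 2.13 and 2.30 on the WT arrays. H2-DMa lay between 1.74 and 1.83 on the KO arrays and between 1.72 and 1.81 on the WT arrays. Over all 12 arrays these probe sets moved by at most 0.22 log2 units.

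**Figure D2:**
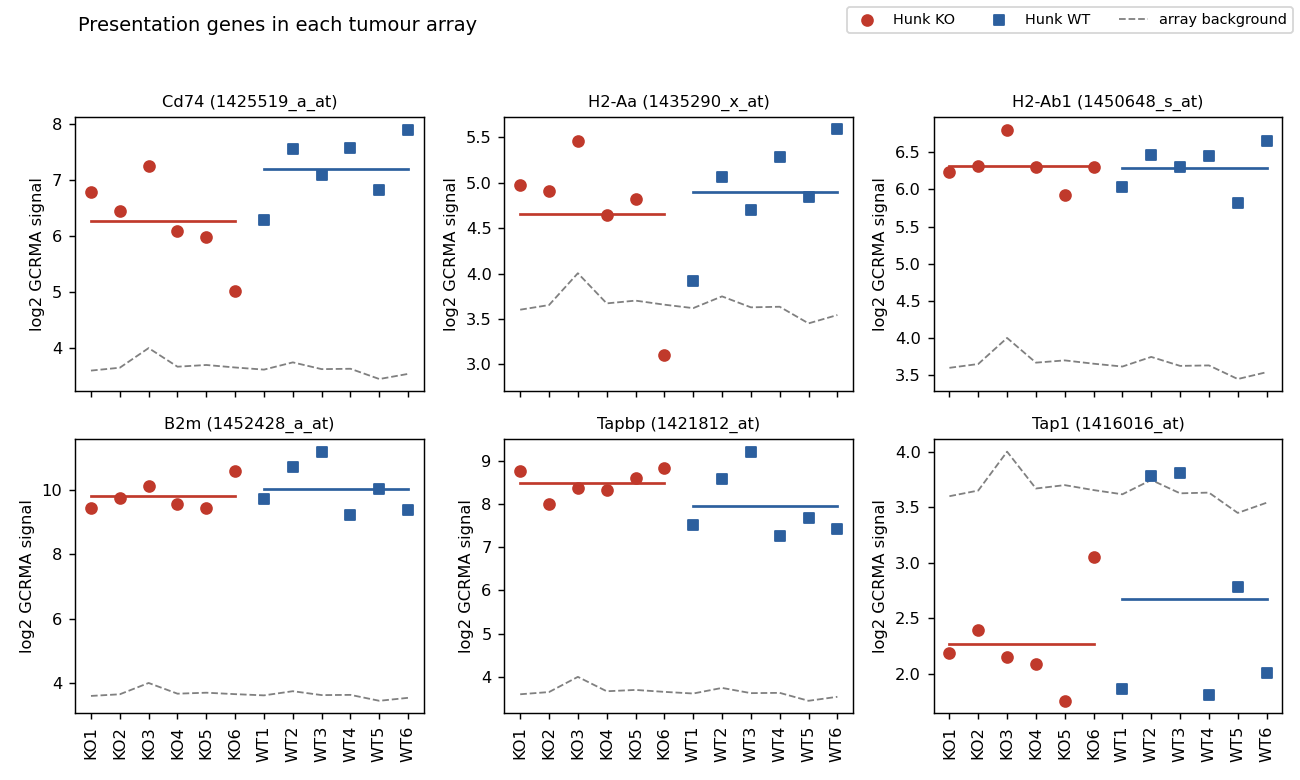
Log2 GCRMA signal of 6 member probe sets on each of the 12 arrays. Red circles are KO arrays, blue squares WT arrays, horizontal lines the group means and the dashed grey line each array's background; axes differ between panels and do not start at 0. KO array 6 is lowest for Cd74 (5.01) and H2-Aa (3.10), and WT arrays 2 and 3 are highest for B2m (10.70 and 11.18) and Tap1 (3.78 and 3.81).

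In the class I pathway, B2m gave the same picture in both of its probe sets, which correlated at r = 0.94 over the 12 arrays. B2m (1452428_a_at) had 9.43, 9.76, 10.10, 9.57, 9.42 and 10.59 on the KO arrays 1 to 6 and 9.71, 10.70, 11.18, 9.20, 10.03 and 9.36 on the WT arrays 1 to 6. WT arrays 3 and 2 and KO array 6 were the highest, each more than 1 log2 unit above the lowest array of its genotype, and the groups overlapped. The mean was 9.81 ± 0.46 in KO tumours and 10.03 ± 0.78 in WT tumours (SD, n = 6 each), a log2 difference of -0.22 (SE 0.34, adjusted p = 0.737), and the other probe set (1449289_a_at) gave -0.29 (SE 0.39, adjusted p = 0.695). With the beta-actin covariate these were -0.65 and -1.09 (adjusted p = 0.611 and 0.350), with the leukocyte mean 0.04 and -0.05, and without WT array 3 they were 0.01 and -0.06. Between the highest and the lowest array the signal of 1452428_a_at differed 3.94-fold.

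Tapbp, the tapasin gene, leaned the other way. Its probe set above background (1421812_at) had 8.77, 8.01, 8.35, 8.33, 8.59 and 8.84 on the KO arrays 1 to 6 and 7.52, 8.58, 9.20, 7.26, 7.66 and 7.41 on the WT arrays 1 to 6. The 6 KO arrays lay above WT arrays 1, 4, 5 and 6, and WT arrays 2 and 3 lay within or above the KO range. The mean was 8.48 ± 0.31 in KO tumours and 7.94 ± 0.78 in WT tumours (SD, n = 6 each), and the log2 difference of 0.54 (SE 0.32) did not pass limma's test (adjusted p = 0.356) and gave p = 0.147 by the exact permutation test, two-sided. Without WT array 3 it was 0.79 (adjusted p = 0.124). The second Tapbp probe set (1450378_at), below background on every array, lay between 2.86 and 3.18 on the KO arrays and between 2.11 and 3.12 on the WT arrays, and correlated with the first at r = 0.80.

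The transporter genes were below background on most arrays. Of the 4 Tap1 probe sets, 1 came above it on any array. This probe set (1416016_at) had 2.19, 2.39, 2.15, 2.09, 1.76 and 3.05 on the KO arrays 1 to 6 and 1.87, 3.78, 3.81, 1.81, 2.78 and 2.01 on the WT arrays 1 to 6. WT arrays 2 and 3 were above background, and KO array 6 and WT array 5 were next in order but below it. Tap2 (1453913_a_at) had 1.90, 2.19, 2.27, 2.17, 2.21 and 2.80 on the KO arrays 1 to 6 and 2.19, 2.87, 2.93, 1.70, 2.14 and 2.14 on the WT arrays 1 to 6. WT arrays 2 and 3 and KO array 6 were again the 3 highest, all below background. The remaining Tap1 probe sets lay between 1.69 and 3.25 on the KO arrays and between 1.63 and 3.08 on the WT arrays.

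Co-variation was measured for all 45 pairs of the 10 genes over the 12 arrays, with each gene taken as its probe set of highest mean and p-values from 100000 permutations adjusted over the 45 pairs by the Benjamini-Hochberg method. Of the 45, 5 pairs passed at an adjusted p of 0.05, all with positive r. How many pairs of other genes would pass was not measured, so these counts do not set the members apart from other genes. Within class II 2 of 15 pairs passed and the median r was 0.36, within class I 1 of 6 passed with a median of 0.49, and of the 24 pairs between the pathways 2 passed with a median of 0.07. H2-Aa and Cd74, and B2m and Tap2, were 2 of the 5. The other 3 were Ciita with H2-DMa, Ciita with Tap1 and H2-DMa with Tap1, all by probe sets below background on every array. Exact permutation p-values within a genotype are given before adjustment unless called adjusted. After adjustment 0 pairs passed among the KO arrays alone and 5 among the WT arrays alone. The smallest exact permutation p that 6 arrays can give is 0.00139, so over 45 pairs no pair can pass by itself. These counts therefore do not compare co-variation between the genotypes. The 5 of the WT arrays were not the same 5. Ciita with Tap1 and H2-DMa with Tap1 did not pass there, while B2m with Tapbp and Tap2 with Tapbp did.

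H2-Aa and Cd74 were high and low on the same arrays. Pearson's r was 0.85 over the 12 arrays (adjusted permutation p = 0.00315) and Spearman's rho 0.85 (adjusted permutation p = 0.0187). Within the genotypes r was 0.94 on the KO arrays (exact permutation p = 0.00278) and 0.96 on the WT arrays (exact permutation p = 0.00417). Adjusted over all pairs, these exact permutation p-values were 0.0626 and 0.0375, so the KO arrays alone did not pass. Without KO array 6 and WT array 1, the arrays farthest from the median of H2-Aa, r was 0.77 (adjusted permutation p = 0.0579), and without KO array 6 alone it was 0.72 (adjusted permutation p = 0.0872), so neither passed. H2-Ab1 had r = 0.44 with H2-Aa (adjusted permutation p = 0.533) and 0.51 with Cd74 (adjusted permutation p = 0.411), and its r with H2-Eb1 was 0.60 (adjusted permutation p = 0.210). Without KO array 6 these were 0.69 with H2-Aa (adjusted permutation p = 0.128) and 0.68 with Cd74 (adjusted permutation p = 0.143), and rho over the 12 arrays was 0.67 in both pairs (adjusted permutation p = 0.102). On the WT arrays r of H2-Ab1 was 0.70 with H2-Aa (exact permutation p = 0.121) and 0.86 with Cd74 (exact permutation p = 0.0250), before adjustment.

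B2m moved with Tap2 and, by the Tap1 probe set that came above background, with Tap1. For B2m and Tap2 r was 0.93 (adjusted permutation p = 0.000225) and rho 0.84 (adjusted permutation p = 0.0187), with r = 0.89 on the KO arrays (exact permutation p = 0.0125) and 0.94 on the WT arrays (exact permutation p = 0.00417). On the KO arrays alone the pair did not pass after adjustment (adjusted exact permutation p = 0.1125). Without WT arrays 2 and 3, the farthest from the median of B2m, r was 0.85. Tap2 was below background throughout, so this is co-variation of a bright probe set with one near the floor of the measurement. By 1416016_at, chosen after the values were seen, B2m and Tap1 had r = 0.93 (adjusted permutation p = 0.00150), with 0.85 on the KO arrays (exact permutation p = 0.0347), 0.96 on the WT arrays (exact permutation p = 0.00694) and 0.84 without WT arrays 2 and 3. By the same probe set Tap1 and Tap2 had r = 0.86 (adjusted permutation p = 0.0103) and rho 0.58 (adjusted permutation p = 0.198). By the Tap1 probe set of highest mean (1420274_at), below background on every array, r was 0.16 with B2m and 0.20 with Tap2.

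B2m and Tapbp were tied on the WT arrays. Over the 12 arrays r was 0.64 and did not pass (adjusted permutation p = 0.169). On the WT arrays it was 0.98 (exact permutation p = 0.00139) and on the KO arrays 0.21 (exact permutation p = 0.658), and the difference between the genotypes was not tested. With each array's deviation from its group mean in place of its value, r was 0.82 (adjusted permutation p = 0.0071), and without KO array 1 it was 0.76 (adjusted permutation p = 0.0480), so both passed. Without WT arrays 2 and 3, the farthest from the median of B2m, it was 0.41 (adjusted permutation p = 0.585), and without WT array 3 alone 0.48 (adjusted permutation p = 0.474). Tap2 and Tapbp gave r = 0.94 on the WT arrays (exact permutation p = 0.00417) and 0.27 on the KO arrays (exact permutation p = 0.644). Over the 12 arrays their r was 0.67 (adjusted permutation p = 0.146), with deviations 0.80 (adjusted permutation p = 0.0114) and without KO array 1 0.83 (adjusted permutation p = 0.00667). Without WT arrays 2 and 3 it was 0.51 (adjusted permutation p = 0.464). The WT values of Tapbp spread over about 2 log2 units and those of the KO arrays over less than 1.

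Between the pathways, the pairs that passed were those of the dim Tap1 probe set with Ciita and H2-DMa, described below. Of the pairs between bright probe sets, Cd74 and B2m had r = -0.09 (adjusted permutation p = 0.948) and H2-Aa and B2m -0.35 (adjusted permutation p = 0.653), and neither passed. KO array 6 had the lowest Cd74 and H2-Aa and the third-highest B2m, and WT arrays 4 and 6 had high Cd74 and the lowest B2m. Without KO array 6, r of Cd74 and B2m was 0.19, and its sign also turned without WT array 4 or WT array 6 (0.03 and 0.04). Without KO array 6 and WT array 6, the farthest from the median of Cd74, it was 0.41 (adjusted permutation p = 0.585).

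**Figure D3:**
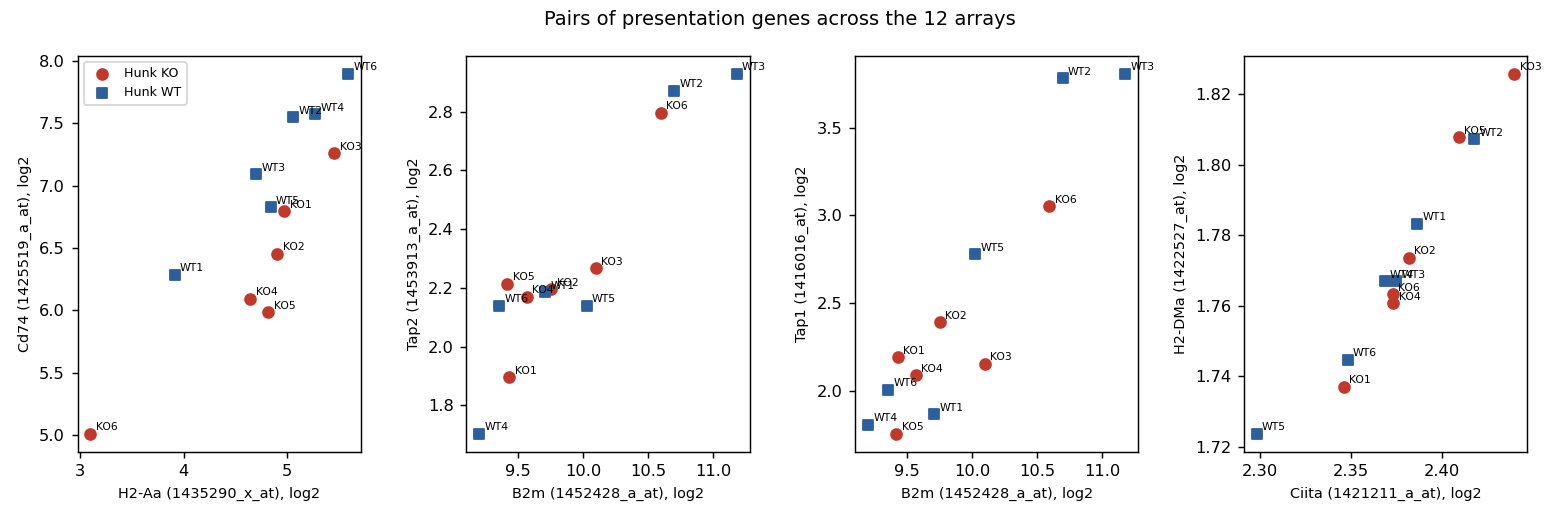
Log2 signals of 4 pairs of members, 1 point per array, red circles for KO arrays and blue squares for WT arrays, each named. From left: Cd74 against H2-Aa (r = 0.85), Tap2 and then Tap1 (1416016_at) against B2m (r = 0.93 in both), where WT arrays 2 and 3 and KO array 6 stand at the upper right, and H2-DMa against Ciita (r = 0.97), which span under 0.15 log2 units on either axis.

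The 3 pairs among dim probe sets followed the array background. Ciita and H2-DMa had r = 0.97 (adjusted permutation p = 0.000225), Ciita and Tap1 0.90 (adjusted permutation p = 0.00202) and H2-DMa and Tap1 0.88 (adjusted permutation p = 0.0009). The same 3 probe sets correlated with the array background at r = 0.90 for Ciita, 0.87 for H2-DMa and 0.99 for Tap1 (1420274_at), and the background had r = 0.04 with Cd74, 0.17 with H2-Aa, 0.18 and 0.33 with the B2m probe sets 1452428_a_at and 1449289_a_at, 0.20 with Tap2, 0.32 with Tapbp (1421812_at) and 0.58 with H2-Ab1 (1450648_s_at), which was above background on all arrays. After quantile normalization, r of Ciita and H2-DMa stayed positive at 0.70 but did not pass (adjusted permutation p = 0.154). For Ciita and Tap1 it was then -0.79 and for H2-DMa and Tap1 -0.69. With Tap1 by 1416016_at, the pairs of Ciita and H2-DMa with Tap1 had r = 0.01 and 0.00. All of these probe sets but 1416016_at were below background on every array.

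**Figure D4:**
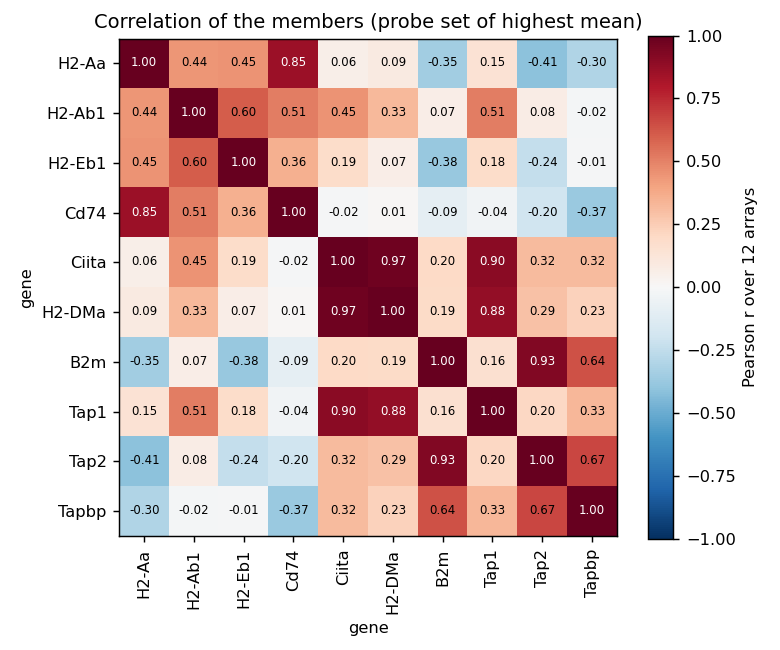
Pearson r over the 12 arrays for each pair of the 10 genes, by the probe set of highest mean, on a scale from -1 (blue) to 1 (red). The cells of H2-Aa with Cd74 (0.85), of B2m with Tap2 (0.93) and of Ciita, H2-DMa and Tap1 with each other (0.88 to 0.97) stand out.

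Levels of other genes were set against those of Cd74, H2-Aa, B2m and Tapbp as the means of 6 gene lists, which gave 24 relations, chosen after the data had been seen and adjusted together. The means were taken over the genes of each list past the filter, for the interferon-gamma response 8 of the 18 with a probe set. B2m with this list was the relation that passed (r = 0.88, adjusted permutation p = 0.0103), while its rho of 0.79 did not (adjusted permutation p = 0.0782). Within the genotypes r was 0.96 on the KO arrays and 0.86 on the WT arrays, and without WT arrays 2 and 3 it was 0.81. The mean of the list was 6.58 and 6.27 on WT arrays 2 and 3, 5.86 on KO array 6 and at most 5.72 on the other arrays. Tapbp with the luminal epithelial markers had r = 0.74 (adjusted permutation p = 0.0954) and did not pass. Within the genotypes its r with them was -0.03 on the KO arrays and 0.88 on the WT arrays. The remaining relations had smaller r, among them B2m with the class I heavy chains at 0.63.

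**Figure D5:**
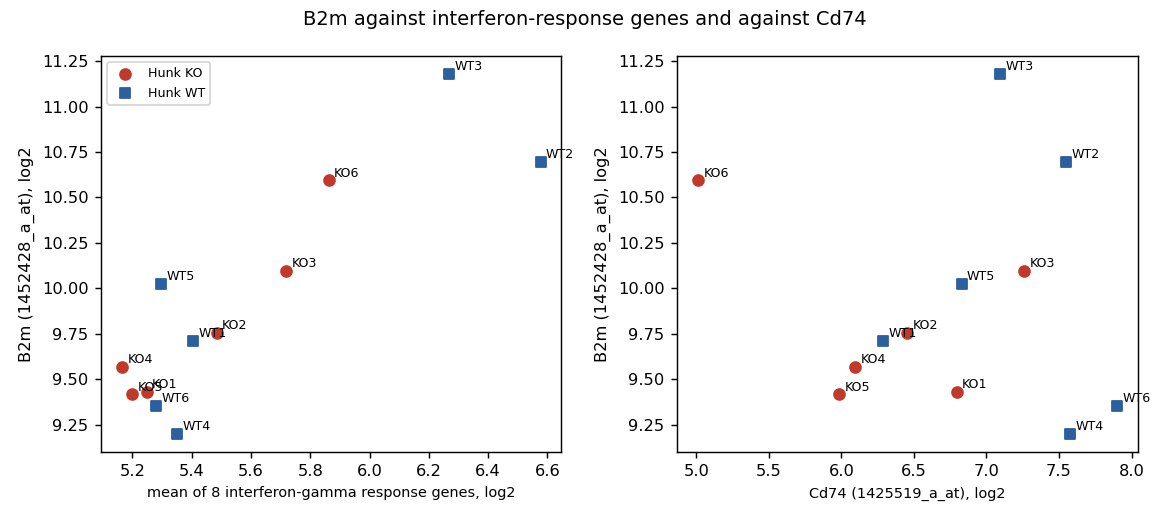
Log2 signal of B2m (1452428_a_at) against the mean of 8 interferon-gamma response genes (left) and against Cd74 (right), 1 point per array, red circles for KO arrays and blue squares for WT arrays. In the left panel B2m is high where the list is high (r = 0.88), with WT arrays 2 and 3 at the far right; in the right panel no such order is seen (r = -0.09).

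The genes most like B2m among 6820 genes past the filter, by Pearson's r over the 12 arrays after each group's mean had been taken off, were Parp9 (0.92), Lgals9 (0.89), Gbp3 (0.88), Tcirg1 (0.88), Irgm2 (0.88), Ifi35 (0.86), Rtp4 (0.86), Trim30a (0.86), Samhd1 (0.85) and Creb3l3 (0.85). Gbp3 and Irgm2 encode interferon-inducible GTPases, and Ifi35 and Rtp4 are interferon-induced genes. Gbp3 was 7.06 on WT array 2 and 7.34 on WT array 3 and between 3.89 and 5.13 on all others, and Rtp4 was between 6.94 and 8.43 on KO arrays 2, 3 and 6 and WT arrays 2 and 3 and between 2.99 and 3.79 on the remaining arrays. For Tap1 by 1416016_at the list held Gbp3 (0.88), Lgals9 (0.87), Wfdc18 (0.86), Trim30a (0.86), Irgm2 (0.86), Cldn7 (0.85), Parp9 (0.84), Ifi35 (0.83), Egfl7 (0.83) and Slfn2 (0.83). B2m and this Tap1 probe set were added as anchors after the data had been seen.

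The genes most like H2-Aa were of other kinds. They were Znhit2 (0.89), Nek2 (0.87), Csnk2a1 (0.86), Abt1 (0.83), Spcs3 (0.81), Srm (0.80), Hars (0.78), Gatad2a (0.76), Ndufs7 (0.76) and Pelo (0.75). Znhit2, Nek2, Abt1 and Spcs3 were also among the 10 most like Cd74, at 0.86, 0.81, 0.81 and 0.79. Znhit2 lay at 3.27 on KO array 6 and between 3.74 and 4.27 on the other arrays, and Nek2, a centrosomal kinase, at 3.89 on WT array 1, 4.07 on KO array 6 and between 4.54 and 4.89 elsewhere. KO array 6 and WT array 1 were also the lowest KO and WT arrays for H2-Aa. For Tap1 by its probe set of highest mean, the 10 most alike (Tbc1d8b, Vps25, Man2c1os, Umod, Psg23, Slco6c1, Insr, Mical2, Lrrc57 and Tgfb2) all had r between 0.98 and 0.99 and lay between 3.75 and 4.87.

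The rest of the presentation machinery gave no call between the genotypes, beside 2.80% called among all 6825 genes tested. Of the class II list beyond the members, 10 of 19 genes were tested and 0 rose or fell, with a median log2 change of 0.10. They included the endosomal proteases cathepsin L (Ctsl, 0.70, adjusted p = 0.125 by limma), cathepsin S (Ctss, -0.49, adjusted p = 0.348), which trims the invariant chain, and legumain (Lgmn, -0.47, adjusted p = 0.209). Of 18 class I heavy chain genes, 6 were tested, 0 rose or fell and the median was 0.13, and H2-D1, the one of highest mean, was 10.93 ± 0.50 in KO tumours and 10.74 ± 0.56 in WT tumours (SD, n = 6 each). Heavy chain genes are near-identical to each other and the H2-D1 probe set ends in _x_at, a mark for probes shared between transcripts, so its signal may come from several genes. Of 14 further class I genes, 9 were tested and 0 rose or fell (median -0.15). The chaperone calreticulin (Calr) had a change of 0.46 (adjusted p = 0.252 by limma). The immunoproteasome subunit Psmb8 was 6.26 and 6.53 on WT arrays 2 and 3 and between 4.24 and 5.42 on the other arrays.

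Of 20 interferon-gamma response genes, 8 were tested, 0 rose or fell, and the median log2 change was -0.23, beside 0.01 over the 6825 genes tested, of which 2.80% were called. The chemokine gene Cxcl10 was 7.11 and 6.67 on WT arrays 2 and 3 and between 4.40 and 4.77 on the others. The transcription factor Irf1, the one of highest mean tested, had a change of -0.12. Of 6 costimulation genes, 1 was tested and 0 rose or fell.

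Markers of the cells that could carry class II were measured beside these genes. In bulk tumour RNA, fewer cells of a type and less RNA per cell cannot be told apart. Of the 15 macrophage markers 11 were above background on all 12 arrays and 3 on none. The mean of the 12 tested was between 6.23 and 6.92 on the KO arrays and between 6.58 and 6.91 on the WT arrays, 0 rose or fell, and the median log2 change was -0.12. Of the 12, 3 had a positive and 9 a negative change. An unadjusted limma p under 0.05 was given by 5 of them, against 19.1% of the probe sets past the filter. C1qc (-1.03, adjusted p = 0.174 by limma) and Fcgr3 (-0.71, adjusted p = 0.114), which encode a complement component and an Fc receptor, had negative changes, C1qb a change of -0.66, the lipopolysaccharide receptor Cd14 a change of 1.24 (adjusted p = 0.168) and lysozyme (Lyz2) a change of -0.18. Of these, C1qc passed limma's test without KO array 1 (-1.38, adjusted p = 0.0189) and with array weights (-1.37, adjusted p = 0.0304), C1qb without WT array 5 (-0.83, adjusted p = 0.0407) and with array weights (-0.84, adjusted p = 0.0264), and Cd14 without KO array 1 (1.61, adjusted p = 0.0337). The 6 leukocyte markers tested of 9 all had a negative change, with a median of -0.45 and 0 called. Among them were Laptm5 (-0.54, and -0.67 with array weights, adjusted p = 0.0458 by limma) and Lcp1 (-0.54). The mean of the 6 was between 5.98 and 6.83 on the KO arrays and between 6.49 and 7.16 on the WT arrays. Cd74 had r = 0.09 with the macrophage mean and 0.33 with the leukocyte mean over the 12 arrays. With the leukocyte mean as a covariate the log2 difference of Cd74 was -1.01 (adjusted p = 0.369), and with the macrophage mean -1.04 (adjusted p = 0.200).

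Most dendritic and lymphoid markers were below background on every array, which gives only an upper bound on their levels. All 8 dendritic markers measured were above background on no array. Of 8 B cell markers 2 were above it on all arrays and 6 on none, and of 14 T and NK cell markers 2 and 12. Ms4a1, which encodes CD20, was 5.00 ± 0.26 in KO tumours and 4.73 ± 0.17 in WT tumours, and Cd4 was 4.64 ± 0.24 in KO tumours and 4.53 ± 0.07 in WT tumours (SD, n = 6 each). Of 10 luminal epithelial markers 9 were tested, 6 with a positive and 3 with a negative change, and the median log2 change was 0.39. Limma called 2 of the 9, beside 2.80% of the 6825 genes tested. Both rose, the keratin gene Krt19 (4.08, adjusted p = 0.0479 by limma) and the surface protein gene Cd24a (0.87, adjusted p = 0.0256). Neither passed with the beta-actin covariate (2.56 and 0.58, adjusted p = 0.417 and 0.285), the leukocyte covariate (4.15 and 0.87, adjusted p = 0.171 and 0.127), the macrophage covariate (3.66 and 0.78, adjusted p = 0.0933 and 0.0578), KO arrays 4 and 5 averaged (4.16 and 0.86, adjusted p = 0.0793 and 0.0535) or the exact permutation test (adjusted p = 0.0978 for both). Krt19 was also not called with median centring (4.03, adjusted p = 0.0539) or with no filter (adjusted p = 0.0978). Krt19 also did not pass without any one of KO arrays 2 to 6 or WT arrays 1, 3, 4 and 5 (adjusted p up to 0.105), nor Cd24a without any one of KO arrays 3 to 6 or WT arrays 4 to 6 (adjusted p up to 0.0634). The mean of the 9 was between 9.50 and 9.72 on the KO arrays and between 8.75 and 9.42 on the WT arrays. The 4 fibroblast markers tested had a median of 0.68 with 0 called. Of 8 endothelial and 9 adipocyte markers 2 each were tested with 0 called, and the adipocyte median was 1.94. The part that these cells have in the values of the presentation genes was not tested beyond the covariates and correlations given.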

How the data were processed

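The deposited table holds log2 values of 12 arrays, made by the authors with GCRMA per the submitters' processing notes. RNA was extracted with Trizol and hybridised as biotin-labelled cRNA, per the labels' protocols. GCRMA pulls dim probe sets toward a common floor, which compresses their differences. No batch or scan time is given in the sources used here. Values were used as deposited, and 0 columns were left out.

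Symbols came from the platform annotation (20393 of 22690 probe sets with 1 symbol, 691 with several, 1606 not listed), updated through RefSeq. The 64 control probe sets were left out of tests, and the depth of an array has no counterpart here beyond the number of arrays.

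KO was compared with WT by limma 3.58.1 (lmFit, eBayes with trend) in R 4.3.3, with Benjamini-Hochberg adjustment over the 11313 probe sets whose mean exceeded the median (3.98). Members below it were read from the same fit over all 22626. Exact permutation tests used all 924 splits, two-sided, with a smallest p of 0.00216. On simulated data of 11313 probe sets, 76% of those changed by 1 and 93% of those changed by 2 on the log2 scale were recovered for KO against WT, with 6 false calls. The simulated noise was independent between arrays and between probe sets, which the real values are not. These shares therefore check the code and do not give the power for the members.

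The members, gene lists and tests were chosen with earlier results of these data known. Named genes are all members, and of each list those past the threshold, up to 4 of largest change and the one of highest mean, and the 10 genes most like an anchor.

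Replicate numbers were checked for pairing: deviations of same-numbered arrays correlated between -0.02 and 0.14. The WT array most like a KO array was the same-numbered one for replicates 2, 5 and 6, and another one for replicates 1, 3 and 4. The check does not settle whether the numbers pair the arrays. Alternatives were other filters and variance priors, quantile normalization, median centring, array weights, a replicate block, marker and beta-actin covariates, a floor at background, KO arrays 4 and 5 averaged and each array left out. The other Tap1 probe set, the anchors B2m and Cd74, and the relations with gene lists were added after seeing the data. Figures were drawn with matplotlib 3.10.9.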

Additional observations from a re-analysis of the deposited data

Results flagged for a closer look

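In 9 of the 78 groups of 6 arrays looked at, 1 array stood apart from the other 5 of its group, its gap to the nearest of them exceeding Dixon's critical share of the group's range. Chance flags about 1 in 20 groups. Among the members, 4 of 38 groups were of this kind. H2-Aa (1435290_x_at) was 3.10 on KO array 6, with the next KO array at 4.65, and this array moves the class II results given above. The dim H2-Aa probe set (1452431_s_at) was 3.11 on KO array 3 and 2.86 on WT array 4, both below background. H2-Ab1 (1451721_a_at) was 3.52 on WT array 5. Of the other genes, Lgmn was 8.02 on KO array 1, Cxcl10 4.40 on KO array 5, C1qb 8.06 on WT array 5, Cd24a 11.6 on KO array 1 and Cd4 4.65 on WT array 2.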

How the results depend on the processing

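The count of member probe sets called was 0 in all alternatives but array weights, where it was 1 (Cd74). The count of all probe sets called, 278, was 602 with array weights, 104 with the beta-actin difference and 114 with the leukocyte mean as a covariate, 170 with KO arrays 4 and 5 averaged, 112 with the replicate block, 152 with no filter and 0 with the exact permutation test after adjustment, whose smallest p limits it. It lay between 134 (without WT array 4) and 315 (without KO array 1) with each array left out, and was 168, 161, 167 and 184 without KO arrays 4, 5 and 6 and WT array 6. The replicate block changed no call of a member, and gave Cd74 an adjusted p of 0.290. The count of pairs called, 5, was 0 among KO arrays alone, where 6 arrays limit the smallest p, and 2 after quantile normalization. It was 4 to 7 with an array left out, and 7 both with deviations from group means and without the 2 farthest arrays. Among WT arrays alone it was 5, but not of the same pairs.

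Changes near 0 turned sign. H2-Aa lay between -0.44 and 0.065 with each array left out, H2-Ab1 (1450648_s_at) between -0.073 and 0.10, its probe set 1451721_a_at between -0.0032 and 0.070, B2m (1452428_a_at) between -0.38 and 0.013, Lyz2 between -0.42 and 0.0056 and r of Cd74 and B2m between -0.25 and 0.19. H2-Ab1 (1450648_s_at) was -0.13 with array weights, -0.065 with the beta-actin covariate and -0.032 with median centring, and 1451721_a_at -0.0036 with median centring and -0.0076 with quantile normalization. With the leukocyte covariate B2m (1452428_a_at) was 0.037, Ctss 0.071, Gbp3 0.024, Lcp1 0.12 and Lyz2 0.48. Lyz2 was 0.86 with the beta-actin and 0.29 with the macrophage covariate. With the beta-actin covariate C1qc was 0.016 and Cd4 -0.10, and with array weights H2-D1 was -0.069. For pairs, r of Tap1 and Tapbp was -0.30 on the KO arrays, and r of Cd74 and B2m was 0.41 without KO array 6 and WT array 6. After quantile normalization r was -0.79 for Ciita and Tap1, -0.69 for H2-DMa and Tap1 and -0.078 for Tap1 and Tap2, and with the other Tap1 probe set -0.000197 for H2-DMa and Tap1. The causes were not tested.

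Signal over background limits H2-Eb1, Ciita, H2-DMa and Tap2, which were below it on all arrays, and Tap1, which was above it on WT arrays 2 and 3 alone, so the size of a genotype difference in these genes cannot be given. Of the settings of member changes, 165 kept direction and call, 12 turned sign and 1 gained a call. No member change was called at first, so a kept call there means none. Of the settings of pair correlations, 300 kept direction and call, 9 turned sign, 8 gained a call and 11 lost one.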
